A study of Avicennia schaueriana with 18 samples.

Results

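The transcripts described here are the 200 most abundant non-coding transcripts that were assembled from leaves, stems and flowers of the mangrove tree *Avicennia schaueriana*. They were chosen by their mean level and by having counts at both sites. Each count was divided by the total of its library and expressed per 1000000 counts (CPM), and the rows named as non-coding were ranked by their mean CPM over the 18 libraries. Of the 19263 non-coding rows of the table, 596 had no count in the 6 leaf and stem libraries of one site and were removed before the 200 were taken, and 1 of them, non_cod_As_48066, would otherwise have ranked among the 200. The 200 are 1.04% of the non-coding names, beside 30227 transcripts named as coding and 49490 transcripts in all.

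RNA came from 6 adult flowering trees in the field, with 1 library of each tissue from each tree. Trees Eq4, Eq5 and Eq6 grew at the equatorial site and were sampled in late July at an air temperature of 28.3 to 30.1 °C and a relative humidity of 47 to 51%. Trees St1, St2 and St4 grew at the subtropical site and were sampled in late August at 18.3 to 20.9 °C and 82 to 86%. The labels name no treatment, and site, date, weather and origin of the trees cannot be told apart. Values of a group are always given in the order Eq4, Eq5, Eq6 and St1, St2, St4.

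Non-coding here means that no open reading frame was predicted in the assembled sequence. Plant long non-coding RNAs are usually less abundant than messenger RNAs and more often restricted to one tissue. In *Arabidopsis*, COOLAIR and COLDAIR act at the flowering repressor gene FLC when plants pass through cold, and IPS1 binds a microRNA of phosphate starvation and keeps it from its target. An assembled transcript without a reading frame can also be a piece of a longer messenger RNA or an organellar RNA. None of the 200 has a gene name, function or sequence in the tables used here, so they are described by their levels.

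Library totals were 8749713 to 14313994 counts in leaves, 9894226 to 15802680 in stems and 5055480 to 11172632 in flowers. Photosynthesis transcripts (PSAO, PSBO1 and PSB27) had their highest medians in leaves, and secondary wall transcripts (CESA4, CESA8, IRX3 and LAC4) in stems, as the tissue labels say. No marker of flowers was available. The flower library labelled Eq6 stood apart. On the scale of log2(CPM + 1), 58 of the 200 transcripts were nearer in that library to the mean of the other equatorial flowers than to the mean of the subtropical flowers. In the 5 other flower libraries 103 to 129 transcripts were nearer to their own site, with Eq6 left out of the means. The counts of members in flower contrasts are therefore given with and without it, and so is each flower result of a named transcript whose call changed.

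The mean levels that chose the members ran from 4106 CPM for non_cod_As_37948 to 28.8 CPM for non_cod_As_1225 at rank 200. The first transcript outside, non_cod_As_30317, had 28.7 CPM. The median member had 54.7 CPM, against 0.707 CPM for all non-coding and 9.72 CPM for coding transcripts. Only 5 members passed 1000 CPM and 46 passed 100 CPM. CPM takes no account of transcript length, which was not used here, so the order of 2 members is one of counts and not of RNA molecules. Of the 200, 191 had counts in all 18 libraries. The ratio of the highest to the lowest library of a member had a median of 4.04, was under 3 in 68 members and over 100 in 13.

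The share of all counts that fell on non-coding transcripts was low in every tissue and lowest in leaves. It was 5.23, 5.18 and 5.25% in equatorial and 4.87, 5.17 and 4.88% in subtropical leaves. In stems it was 6.17, 6.28 and 6.04% at the equatorial and 6.72, 7.43 and 6.10% at the subtropical site. In flowers it was 6.77, 5.02 and 6.33% at the equatorial and 6.19, 8.17 and 5.88% at the subtropical site. Every stem library was above every leaf library, whereas flowers overlapped both. Stems exceeded the leaves of the same tree by a mean of 1.36 percentage points, in 6 of 6 trees (two-sided exact sign-flip permutation test, p = 0.03125, the smallest that 6 trees allow, and 0.1875 after Benjamini-Hochberg adjustment over 6 comparisons). Flowers exceeded leaves by 1.30 points in 5 of 6 trees (exact p = 0.0625, adjusted 0.1875), and flowers and stems differed by -0.0628 points (exact p = 0.875, adjusted 0.875). Between sites, subtropical minus equatorial, the difference was -0.246 points in leaves (two-sided exact permutation p = 0.1, adjusted 0.2), 0.584 in stems (exact p = 0.3, adjusted 0.45) and 0.703 in flowers (exact p = 0.6, adjusted 0.72). With 3 trees against 3 the smallest possible p is 0.1, and no comparison passed the adjustment.

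**Figure D1:**
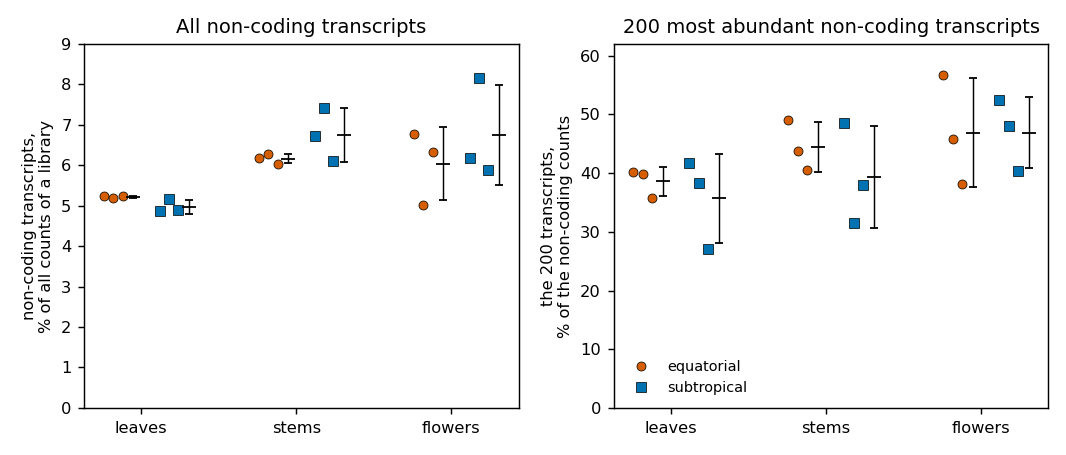
Left, non-coding transcripts as a percentage of all counts of a library. Right, the 200 members as a percentage of the non-coding counts. Circles are equatorial and squares subtropical trees, and bars give the mean ± SD of 3 trees. Leaf libraries lie between 4.87 and 5.25% on the left, below all stem libraries, and the members' share on the right runs from 27.0 to 56.6%.

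The 200 members held a large part of these non-coding counts. As a description of what the choice by level gathered, their share was 40.2, 39.8 and 35.8% in equatorial and 41.7, 38.3 and 27.0% in subtropical leaves. In stems it was 49.1, 43.7 and 40.6% and 48.6, 31.4 and 38.0%. In flowers it was 56.6, 45.9 and 38.1% and 52.4, 48.0 and 40.3%. The sites overlapped in all 3 tissues. The highest share was that of the flower library of Eq4, where non_cod_As_37948 alone made up 19.998% of the non-coding counts, against 0.546% in the St1 leaf library. The 95% Wilson intervals of these shares are at most 0.332 points wide, and they cover counting error only.

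The 10 most abundant members fell into different tissue patterns. The most abundant of all, non_cod_As_37948, had 4629, 2852 and 2349 CPM in equatorial leaves and 266, 871 and 914 CPM in subtropical leaves. In stems it had 8201, 3373 and 3809 CPM and 5540.4, 1510.3 and 3719 CPM. In flowers it ranged from 998 CPM in Eq6 to 13544 CPM in Eq4, with 2357 CPM in Eq5 and 8673, 8159.9 and 2135 CPM in subtropical trees. The sites were apart in leaves and overlapped in stems and flowers, and trees of the same site differed widely within a tissue. The members non_cod_As_11034 and non_cod_As_11374 had similar profiles. Over the 18 libraries the Pearson r of log2(CPM + 1) with non_cod_As_37948 was 0.966 for non_cod_As_11034 and 0.954 for non_cod_As_11374. The counts of non_cod_As_11034 were 0.183 to 0.489 times those of non_cod_As_37948, and those of non_cod_As_11374 were 0.0841 to 0.322 times, while non_cod_As_37948 itself varied 50.9-fold.

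These 3 transcripts were higher in flowers than in leaves. The log2 fold change, averaged over both sites, was 1.97 (SE 0.64, adjusted p = 0.0192) for non_cod_As_37948, 1.99 (SE 0.55, adjusted p = 0.00729) for non_cod_As_11034 and 2.49 (SE 0.57, adjusted p = 0.00202) for non_cod_As_11374, by edgeR's quasi-likelihood test on TMM-scaled counts where adjusted p-values are those of Benjamini and Hochberg, taken over every transcript in the fit. Some of these calls were lost with a tree left out, and the cause was not tested. Without Eq4 the adjusted p was 0.105 for non_cod_As_37948 and 0.0691 for non_cod_As_11034, with log2 fold changes of 1.197 and 1.221. Without St1 and St2 in turn the adjusted p of non_cod_As_37948 was 0.0949 and 0.0502, with log2 fold changes of 1.615 and 2.0003. Over all transcripts 37.6, 37.2 and 39.01% were called in this contrast without Eq4, St1 and St2 in turn, against 46.6% with all trees. Within equatorial trees alone, none of the 3 members passed (adjusted p 0.144 to 0.512). Flowers and stems were not called apart with all libraries (adjusted p 0.390 for non_cod_As_37948, 0.111 for non_cod_As_11034 and 0.0773 for non_cod_As_11374). Without the Eq6 flower library, flowers were above stems in non_cod_As_11034 (log2 1.43, adjusted p = 0.0194) and non_cod_As_11374 (log2 1.58, adjusted p = 0.0162).

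The coding transcript whose profile was most like that of non_cod_As_37948 was As_44751, with r = 0.989 over 18 libraries. As_44751 had 3821 CPM in the St1 leaf library and 111492 CPM in the Eq4 flower library, and the counts of non_cod_As_37948 were 0.0688 to 0.122 times its counts in each library. The ratio of the non-coding member to this very abundant coding row thus moved much less than either transcript did. Neither has an annotation in the tables used. Among the 129 transcripts that the study's tables pair with an *Arabidopsis* match, many of them listed there for a site difference in these libraries, the most alike for all 3 members was As_18535, matched to the mitochondrial gene COX3 of the respiratory chain, with r from 0.842 to 0.888.

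Other members of the top 10 were lowest in flowers. The second in rank, non_cod_As_46456, had 1329.6 to 2200.5 CPM in leaves (median 1759.7), 1439 to 2854 CPM in stems (median 2425) and 207 to 774 CPM in flowers (median 432). Flowers did not overlap the other tissues, and the difference was -2.07 from leaves (SE 0.27, adjusted p = 1.81e-05) and -2.13 from stems (SE 0.28, adjusted p = 2.72e-05) on the log2 scale. The order of the tissues was the same in a lower-ranked member. For non_cod_As_49956 the range was 418 to 1158 CPM in leaves, 756 to 1513 CPM in stems and 179.6 to 596 CPM in flowers, with a difference from leaves of -1.67 (SE 0.33, adjusted p = 0.00061). Its flowers overlapped its leaves, and its r with non_cod_As_46456 was 0.946.

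The tenth in rank, non_cod_As_49572, was the most depleted in flowers of these 10. It had 409, 403 and 402 CPM in equatorial and 804, 891 and 291 CPM in subtropical leaves, and 162, 150.3 and 109 CPM and 566, 817 and 552 CPM in stems. In flowers it had 15.8, 8.94 and 62.9 CPM and 129, 95.4 and 44.1 CPM, below every leaf library. Its log2 difference from leaves in flowers was -3.52 (SE 0.41, adjusted p = 5.01e-06). Stems were below leaves in equatorial trees and overlapped them in subtropical trees. The difference of stems from leaves (-1.10, SE 0.37, adjusted p = 0.0322) was not called with library totals (0.139), in subtropical trees alone (0.675), or without Eq4 (0.0712), Eq5 (0.0640), St1 (0.130) or St2 (0.122).

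Stems stood above both other tissues in non_cod_As_37951. In non_cod_As_37951 stems had 1258 to 2331 CPM (median 1773), with leaves at 539.7 to 1252 CPM and flowers at 399 to 786 CPM. The lowest stem library lay just above the highest leaf library. The log2 difference was 0.93 for stems minus leaves (SE 0.24, adjusted p = 0.00769, and 0.197 in subtropical trees alone) and -1.45 for flowers minus stems (SE 0.25, adjusted p = 0.000297). With the tree as a replicate block, flowers were also below leaves (log2 -0.51, adjusted p = 0.00838, against 0.0885 without it). For non_cod_As_49573 stems had 492 to 1931 CPM, leaves 268 to 929 CPM and flowers 379.6 to 867 CPM. Its tissues overlapped, and the call of stems above leaves (log2 0.90, SE 0.32, adjusted p = 0.0385) was lost without Eq4, Eq5, St1, St2 or St4 in turn, where the adjusted p was 0.146, 0.106, 0.0603, 0.0668 and 0.0691. Flowers minus stems was -0.78 (adjusted p = 0.0638), and it was called with the tree as a block (log2 -0.71, adjusted p = 0.0152) and with library totals (log2 -0.98, adjusted p = 0.0146).

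The last 2 of the 10 had the smallest ratios of the highest to the lowest library, 4.77 and 3.54. The third in rank, non_cod_As_46460, had 520.0 to 1844 CPM in leaves, 736 to 1455 CPM in stems and 386 to 1440.0 CPM in flowers, and no tissue contrast passed the test (adjusted p 0.0707 to 0.972). With the tree as a replicate block it was lower than in leaves in both stems (log2 -0.70, adjusted p = 0.0324) and flowers (-0.85, adjusted p = 0.00843). In non_cod_As_46461 flowers had 598 to 1008 CPM and leaves 285 to 468 CPM without overlap (log2 0.86, SE 0.26, adjusted p = 0.0118), with stems at 362 to 760.3 CPM overlapping both. That call was lost within equatorial (adjusted p = 0.05004) and within subtropical trees (0.136), and flowers also passed over stems with the tree as a block (log2 0.58, adjusted p = 0.0105) or without the Eq6 flower library (log2 0.72, adjusted p = 0.0341), against 0.0947 with all libraries and no block.

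**Figure D2:**
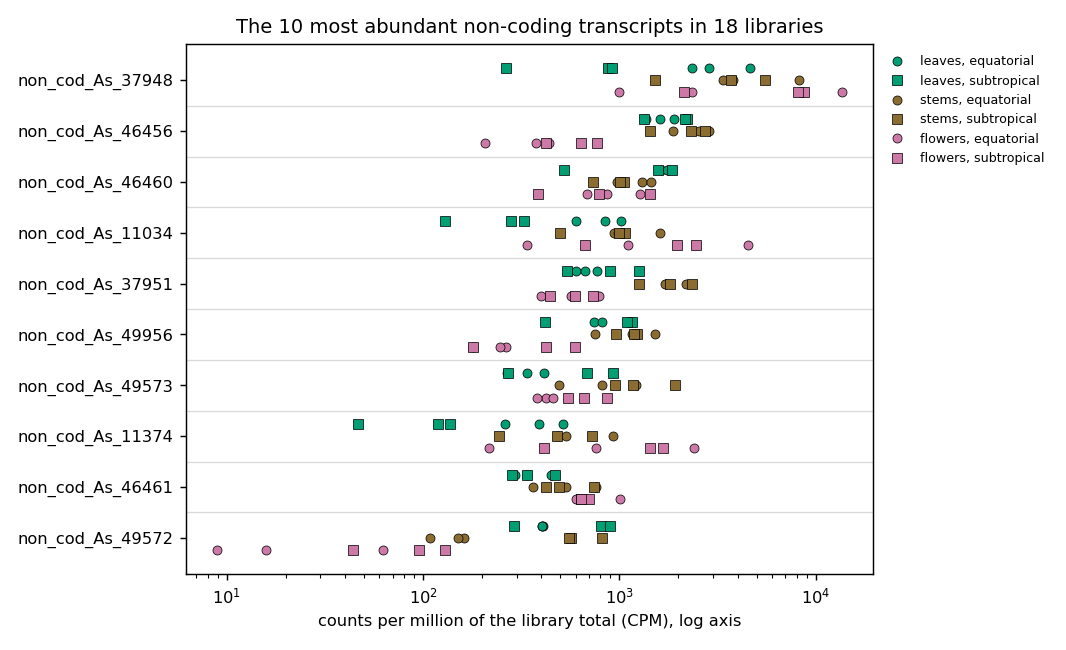
Level of the 10 most abundant members in each of the 18 libraries, in CPM on a log axis. Colour gives the tissue and shape the site. For non_cod_As_46456, non_cod_As_49956 and non_cod_As_49572 most flower libraries lie to the left, while for non_cod_As_37948, non_cod_As_11034 and non_cod_As_11374 the leaf libraries of subtropical trees do.

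Across all 200 members, flowers were the tissue with the highest mean CPM in 111 (55.5%), stems in 63 (31.5%) and leaves in 26 (13.0%). Over all 37761 transcripts tested the split was 30.7% flowers, 46.4% stems and 22.9% leaves, and over the 11321 non-coding transcripts tested it was 25.5%, 49.5% and 25.0%. The next 200 non-coding transcripts, at ranks 201 to 400, lay between, with 79 highest in flowers, 77 in stems and 44 in leaves. Because members were ranked by a mean over tissues, a transcript with a very high level in a single tissue can enter by that tissue alone. With TMM-scaled library sizes the counts of members were 114, 48 and 38, and without the Eq6 flower library 107, 67 and 26. Over 50% of the summed tissue means lay in a single tissue for 75 members (37.5%, against 38.3% of all transcripts tested), and over 80% for 21 (10.5% against 8.92%), of which 16 were in flowers, 5 in stems and 0 in leaves.

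**Figure D3:**
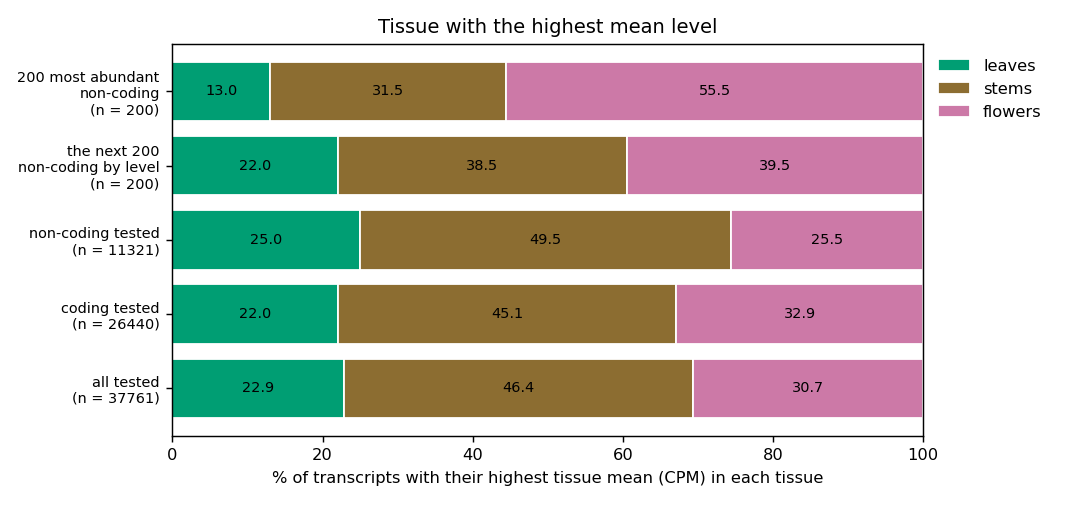
Percentage of transcripts whose highest tissue mean, in CPM, was in leaves, stems or flowers, for the 200 members and for 4 wider sets, with the number of transcripts in brackets. Flowers lead in 55.5% of the members and in 25.5% of all non-coding transcripts tested.

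In the tests between tissues all 200 members passed the filter on low counts. Against leaves, 101 members were higher and 30 lower in flowers, where 46.6% of all transcripts were called, 25.5% higher and 21.1% lower. Against stems, 91 were higher and 38 lower in flowers, with a background of 37.3%, 19.1% higher and 18.2% lower. Between stems and leaves, 32 were higher and 27 lower in stems, with a background of 33.1%, 18.3% higher and 14.8% lower. The share of members called higher in flowers was above the background in both contrasts, and the stem and leaf contrast was near it. This is a description only, because the mean level that chose the members includes the flower libraries. The background was also not matched for level to the members. Without the Eq6 flower library, 100 were higher and 28 lower in flowers than leaves (background 24.6% and 20.1%), and 94 were higher and 33 lower than stems (background 19.2% and 17.4%). At least 1 of the 3 contrasts was called for 163 members (background 61.8%) and none for 37. The median log2 difference of the members was 0.44 for flowers minus leaves, 0.43 for flowers minus stems and 0.05 for stems minus leaves, against 0.01, -0.09 and 0.04 over all transcripts.

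The split between stems and leaves depended on scaling. With library totals in place of TMM, an alternative added after the data were seen, 74 members were higher and 17 lower in stems than leaves (background 27.6% higher and 9.79% lower), and 65 were higher and 46 lower in flowers than stems (background 15% higher and 23.7% lower). The same change moved the median of all transcripts to 0.35 for stems minus leaves, 0.12 for flowers minus leaves and -0.28 for flowers minus stems. For flowers minus leaves it gave 105 higher and 27 lower (background 27.5% higher and 17% lower).

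Flowers exceeded both other tissues in 78 members, against a background of 13.8%. For the 5 with the largest part of their level in flowers, at least 99.5% of the summed tissue means was there. The least ambiguous were non_cod_As_35222 and non_cod_As_23517, which had no count in any of the 6 leaf libraries. In flowers non_cod_As_35222 had 105, 183 and 45.3 CPM at the equatorial and 114, 140.3 and 73.6 CPM at the subtropical site, and at most 2.52 CPM in stems. Against a floor of 3 counts over the 6 leaf libraries, it was at least 2336-fold higher in flowers. In flowers non_cod_As_23517 had 101, 168 and 61.5 CPM and 57.7, 111 and 57.6 CPM, with at most 0.790 CPM in stems, and was at least 1922-fold higher than the same floor in leaves.

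The flower transcript non_cod_As_31291 had 86.2, 165 and 340.5 CPM in equatorial and 391, 364 and 496 CPM in subtropical flowers. It had 2 counts in all leaf libraries, which gives a ratio of 10371 with a 95% counting interval of 2870.4 to 85641, and at most 6.51 CPM in stems. The pair non_cod_As_48599 and non_cod_As_49228 had a profile of its own. In flowers non_cod_As_48599 had 66.1, 59.1 and 901 CPM at the equatorial and 548, 985 and 1157 CPM at the subtropical site. Its partner non_cod_As_49228 had 56.0, 42.2 and 851 CPM and 461, 828 and 1157 CPM. Neither passed 2.93 CPM in leaves or 8.07 CPM in stems, so both were flower transcripts, low in Eq4 and Eq5 and high in Eq6 and the subtropical trees. The pair had r = 0.997, and within flowers the counts of non_cod_As_49228 were 0.715 to 1.0002 times those of non_cod_As_48599. Whether such pairs are separate RNAs or pieces of 1 RNA cannot be told apart without their sequences.

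For these 5 transcripts the stem library of St1 was the highest stem library, except for non_cod_As_23517, where Eq5 was. The St1 stem values were 6.51 CPM for non_cod_As_31291, 5.77 for non_cod_As_49228, 8.07 for non_cod_As_48599 and 2.52 for non_cod_As_35222, against at most 0.696 CPM for the same 4 transcripts in the 5 other stem libraries. Every call of these 5 over leaves and over stems was kept in all 14 alternatives tried, with a largest adjusted p of 0.00173. The 5 named for each tissue were picked among members called higher there than in both other tissues, in these same libraries. Their calls are therefore a description and not separate support.

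Stems exceeded both other tissues in 15 members (background 6.7%), and the 5 with the strongest part there had 82.9 to 95.7% of their level in stems. In non_cod_As_12295 stems had 234, 294 and 48.0 CPM at the equatorial and 166, 211 and 200.2 CPM at the subtropical site, leaves 1.10 to 13.6 CPM and flowers 0.277 to 6.29 CPM. The tissues were far apart, with a log2 difference from leaves of 4.60 (SE 0.65, adjusted p = 5.98e-05). The stem transcript non_cod_As_13380 had 105, 176 and 134 CPM and 145, 149 and 114 CPM in stems, 2.81 to 16.5 CPM in leaves and 2.29 to 12.9 CPM in flowers (stems minus leaves 3.99, SE 0.37, adjusted p = 1.19e-06). In non_cod_As_26540 stems had 36.9 to 158 CPM, and neither other tissue passed 12.6 CPM. In non_cod_As_38010 stems had 46.8 to 422 CPM and neither other tissue passed 16.0 CPM.

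The fifth, non_cod_As_27200, overlapped flowers, with 46.9 to 278 CPM in stems and 2.58 to 54.6 CPM in flowers, while leaves stayed at 1.003 to 4.88 CPM. Its call over flowers (log2 flowers minus stems -2.13, SE 0.55, adjusted p = 0.00645) was lost without Eq5 (adjusted p = 0.0612), without St4 (0.0503), and within equatorial (0.0614) or subtropical trees alone (0.0653). Of the 129 annotated transcripts, As_11264, matched to RFS4, an enzyme of the raffinose family sugars, was the most alike for non_cod_As_12295, non_cod_As_13380 and non_cod_As_26540, with r from 0.910 to 0.935. The secondary wall markers, which are also highest in stems, summed to 139.9 to 2982 CPM in stems, and their part in the levels of these members was not tested.

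Leaves exceeded both other tissues in 18 members (background 10.1%). The 5 with the largest part of their level in leaves had 65.7 to 71.7% of it there. In non_cod_As_27004 leaves had 97.9, 104 and 92.3 CPM at the equatorial and 49.3, 51.0 and 83.1 CPM at the subtropical site, stems 17.7 to 31.4 CPM and flowers 3.46 to 10.3 CPM (flowers minus leaves -3.50, SE 0.28, adjusted p = 1.52e-07). In non_cod_As_27655 leaves had 77.7, 78.4 and 50.2 CPM and 73.8, 85.9 and 77.5 CPM, stems 14.6 to 28.7 CPM and flowers 7.76 to 18.4 CPM (-2.86, SE 0.22, adjusted p = 9.84e-08). Leaves were above stems in both, and stems were above flowers in non_cod_As_27004 and overlapped them in non_cod_As_27655. In non_cod_As_36346 leaves had 61.5 to 218 CPM, and stems and flowers overlapped at 11.4 to 61.1 and 15.1 to 58.8 CPM.

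The transcript non_cod_As_46156 had 86.9 to 244 CPM in leaves, 39.0 to 130.1 CPM in stems and 3.56 to 7.75 CPM in flowers. It thus stood out by its low level in flowers (flowers minus leaves -5.22, SE 0.35, adjusted p = 2.71e-08) more than by its height in leaves. In non_cod_As_36182 leaves had 24.5 to 108 CPM, stems 16.6 to 42.5 CPM and flowers 1.56 to 16.9 CPM, and its call over stems (log2 stems minus leaves -1.54, SE 0.42, adjusted p = 0.0101) was lost without St4 (adjusted p = 0.0556) and in equatorial trees alone (0.208). The annotated transcript most like it was As_26420, matched to PSAO, a subunit of photosystem I and a leaf marker here, with r = 0.948.

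In the opposite sense, flowers were below both other tissues in 20 members (background 9.66%), leaves in 17 (background 11.1%) and stems in 8 (background 3.91%). Summed over members, the 111 with flowers highest had 17115 to 31796 CPM in flowers, 7376 to 15937 CPM in stems and 5340.3 to 10770.4 CPM in leaves. The 63 with stems highest had 10177 to 15466 CPM in stems, 4946 to 9172 CPM in leaves and 3721 to 5946 CPM in flowers. For the 26 with leaves highest the sums were 2923 to 5524 CPM in leaves, 2089.7 to 3700.0 CPM in stems and 1509.7 to 2907 CPM in flowers.

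At the other end were members that hardly varied. In 7 members the highest library was under 2 times the lowest. For non_cod_As_27141 the 18 libraries lay between 60.3 and 110.0 CPM, with medians of 68.8 CPM in leaves, 81.6 in stems and 83.4 in flowers. For non_cod_As_649 they lay between 32.1 and 58.7 CPM, and for non_cod_As_26353 between 35.7 and 66.0 CPM. The tissues overlapped in all 3. Those of non_cod_As_26456 lay between 44.2 and 83.0 CPM. In non_cod_As_46175 stems had 41.6 to 56.0 CPM and leaves 32.9 to 36.2 CPM without overlap, and no tissue contrast passed the test (adjusted p 0.189 to 0.513). None of these 5 was called in any tissue or site contrast. They were picked for a low ratio of highest to lowest library over these same libraries, so the lack of calls follows largely from the choice.

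Members also shared profiles. Over 19900 pairs of members the median r of log2(CPM + 1) was 0.20, and 57 pairs had r over 0.95. These pairs join 47 members into 9 groups. The largest has 30 members, all highest in flowers, at ranks 13 to 199, with 45.9 to 99.6% of the tissue means in flowers (median 63.1%). Together the 30 summed to 763 to 1023 CPM in leaves, 871 to 1429 CPM in stems and 4051 to 7736 CPM in flowers. All 30 were called higher in flowers than in both other tissues (background 13.8%). They were joined by their profiles over these same libraries, so these shared calls are a description and not separate support. The next group in size is that of non_cod_As_37948, non_cod_As_11034 and non_cod_As_11374. A coding transcript with r over 0.95 was found for 95 members, and for 75 of the next 200 non-coding transcripts. These correlations are over the same 18 libraries and 3 tissues, so a difference between tissues alone raises them.

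Between sites the median difference of the members was small. For leaves, stems and flowers in turn the median absolute log2 difference was 0.22, 0.22 and 0.23, against 0.32, 0.31 and 0.29 over all transcripts tested. Members were chosen for a high level and the wider set was not matched for it, so the smaller medians are not shown to be particular to them. Differences of more than 1 on the log2 scale were fitted for 24 of 193 members tested in leaves (12.4%, background 12.1%), 12 of 194 in stems (6.19%, background 12.1%) and 12 of 200 in flowers (6%, background 9.48%). The 7 members left untested in leaves and the 6 left untested in stems had too few counts there for the filter, and all but the stem transcript non_cod_As_401 were highest in flowers.

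In leaves 1 of the 193 members tested passed an adjusted p of 0.05, as a rise at the subtropical site, and none as a fall (background 0.198%, 0.0991% higher and 0.0991% lower). Before adjustment 26 members had a p under 0.05 (13.5%, against 13.1% of all transcripts). The exact test called 8 members (background 3.42%) and DESeq2 10 (background 2.42%). It was non_cod_As_27075, with 12.3, 4.32 and 6.72 CPM in equatorial and 139, 193 and 137 CPM in subtropical leaves. The sites were widely apart, and the log2 fold change, subtropical minus equatorial, was 4.24 (SE 0.41, adjusted p = 0.0275). The call was lost without Eq5, St1, St2 or St4 in turn, with adjusted p of 0.0817, 0.112, 0.0850 and 0.130. In these settings 10, 4, 3 and 0 of all transcripts were called in leaves, against 56 with all trees. Over all trees left out in turn, the log2 fold change of non_cod_As_27075 ran from 3.99 to 4.78. In stems it had 14.4, 27.6 and 26.7 CPM and 120.3, 96.3 and 83.2 CPM, again without overlap (log2 2.06, SE 0.28, adjusted p = 0.0511). The stem difference was called by the exact test (adjusted p = 8.44e-07), by DESeq2 (4.8e-07) and in 1 fit over all 18 libraries (0.0289). In flowers it had 21.6, 14.9 and 38.9 CPM and 46.2, 36.6 and 36.6 CPM, where the library of Eq6 reached the subtropical values (log2 0.65, SE 0.28, adjusted p = 0.866).

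The transcript most like non_cod_As_27075 among all coding transcripts was As_38172, matched to CSD2, the plastid copper/zinc superoxide dismutase that removes superoxide radicals, with r = 0.985. As_38172 had 12.2, 3.44 and 3.61 CPM in equatorial and 146, 212 and 154 CPM in subtropical leaves. The counts of non_cod_As_27075 were 0.753 to 1.86 times those of As_38172 in the 18 libraries.

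In stems 2 of the 194 members tested were called, both higher at the subtropical site (background 0.228%, 0.143% higher and 0.0846% lower), and 18 had a p under 0.05 before adjustment (9.28%, against 9.03% of all transcripts). The exact test called 5 members (background 1.67%) and DESeq2 also 5 (background 1.27%). In stems non_cod_As_30642 had 0.127, 0.395 and 0 CPM at the equatorial and 687, 271 and 428 CPM at the subtropical site. It was nearly absent from equatorial stems, where it had 2, 4 and 0 counts, so the size of the fitted log2 fold change of 11.44 (SE 0.87, adjusted p = 0.0146) rests on very few counts. The call was lost without Eq4 (adjusted p = 0.0746), Eq5 (0.0518) or St4 (0.0528). In these settings 0, 5 and 10 of all transcripts were called in stems, against 78 with all trees. In leaves non_cod_As_30642 had 5.59, 0.222 and 0.401 CPM and 390.1, 201 and 223 CPM (log2 6.83, SE 1.06, adjusted p = 0.0606, 0.0178 without Eq4, 5.03e-06 by the exact test and 1.56e-05 by DESeq2). In flowers it had 4.35, 0.728 and 239 CPM and 344, 201 and 166 CPM. The flower library labelled Eq6 thus held it at a subtropical level, although the leaf and stem libraries of the same tree had 0.401 and 0 CPM.

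The other call in stems was non_cod_As_38315, with 8.73, 16.3 and 5.18 CPM at the equatorial and 918, 552 and 331 CPM at the subtropical site (log2 5.82, SE 0.64, adjusted p = 0.0283). The call was lost without Eq4, Eq5, St1, St2 or St4 in turn, with adjusted p of 0.138, 0.0791, 0.111, 0.0974 and 0.0777, and a log2 fold change from 5.30 to 6.31. Of all transcripts, 0, 5, 11, 20 and 10 were called in stems in these settings, against 78 with all trees. In leaves non_cod_As_38315 did not show this difference, with 291, 374 and 95.2 CPM at the equatorial and 420.3, 317 and 186 CPM at the subtropical site (log2 0.14, SE 0.56, adjusted p = 0.943). In flowers it had 0.989 to 8.77 CPM. Equatorial trees thus held it in leaves and hardly in stems, and subtropical trees in both. The coding transcript most like it was As_48588 with r = 0.994, which had 25.2, 34.9 and 11.3 CPM in equatorial and 2185, 1452 and 1072 CPM in subtropical stems, and the annotated one was As_48417, matched to ISPD of plastid isoprenoid synthesis, with r = 0.953.

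**Figure D4:**
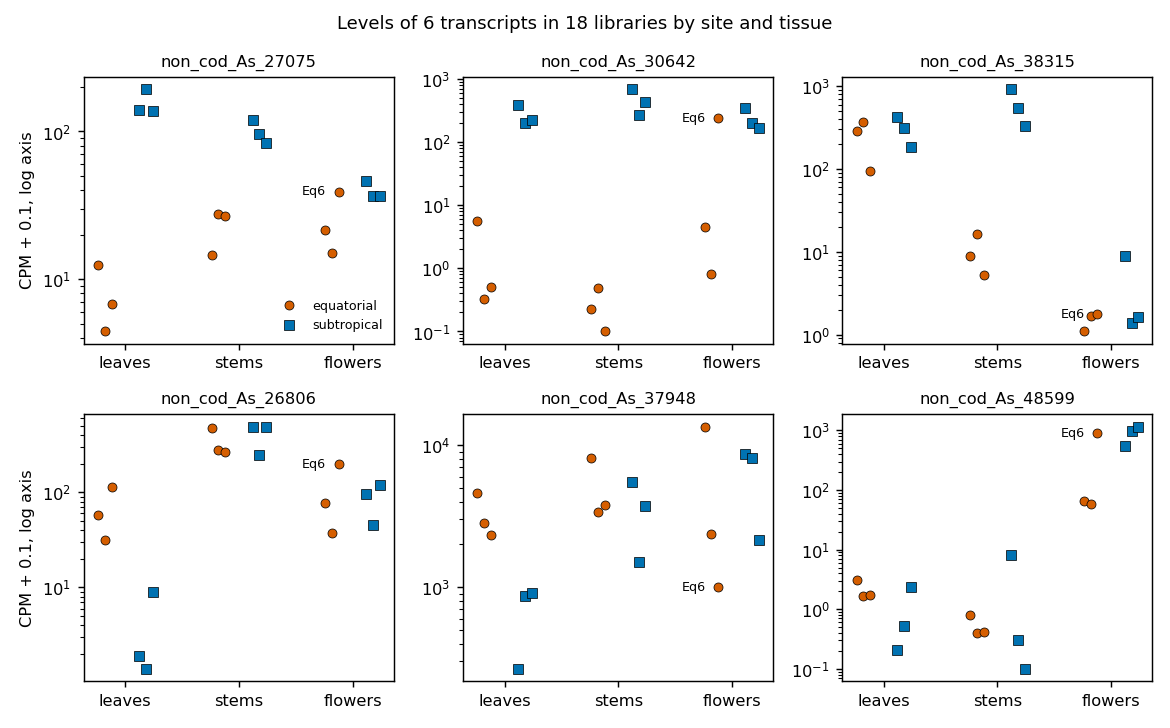
Levels of 6 members in the 18 libraries, as CPM + 0.1 on log axes that differ between panels. Circles are equatorial and squares subtropical trees, and the flower library labelled Eq6 is marked. The sites are apart in leaves and stems for non_cod_As_27075 and non_cod_As_30642, in stems for non_cod_As_38315 and in leaves for non_cod_As_26806 and non_cod_As_37948.

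The difference between the site effects of leaves and stems was tested itself, over the 12 leaf and stem libraries. None of 195 members passed (background 0.0114%), and 14 had a p under 0.05 before adjustment (7.18%, against 5.43% of all transcripts). For non_cod_As_38315 the site effect in leaves minus that in stems was -5.68 on the log2 scale (adjusted p = 0.136). With the tree as a replicate block, since the labels give 1 tree as the source of its leaf and stem, it was -5.52 (adjusted p = 0.00175), and it was then the only member called (background 0.0571%). DESeq2 called 3 members (background 0.196%), non_cod_As_38315 with an adjusted p of 1.26e-07 among them.

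Other members were apart between sites in leaves without passing the test. The stem transcript non_cod_As_26806 had 57.8, 31.6 and 114 CPM in equatorial and 1.80, 1.29 and 8.80 CPM in subtropical leaves (log2 -4.16, SE 0.75, adjusted p = 0.0804), and 470.2, 277 and 268 CPM and 492, 249 and 482 CPM in stems. The secondary wall markers of stems were also higher in sum in equatorial leaves. They summed to 10.5 to 93.4 CPM in equatorial and 6.17 to 8.90 CPM in subtropical leaves. Of the 4 markers, 2 were apart between sites and none was at 0 in any leaf library. The paper reports cell wall transcripts as higher in equatorial trees, from these same libraries. The direction of the markers is therefore not independent of its listing, and their part in this difference was not tested. The exact test and DESeq2 called non_cod_As_26806, with adjusted p of 3.28e-05 and 1.54e-07.

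The abundant group of non_cod_As_37948 was also higher in equatorial leaves. The log2 difference was -2.36 for non_cod_As_37948 (SE 0.59, adjusted p = 0.173), -2.06 for non_cod_As_11374 (SE 0.49, adjusted p = 0.160) and -1.84 for non_cod_As_11034 (SE 0.44, adjusted p = 0.164). In leaves non_cod_As_11034 had 846, 1014 and 599 CPM at the equatorial and 130.1, 327 and 281 CPM at the subtropical site, and non_cod_As_11374 had 389, 517 and 262 CPM and 46.6, 138 and 119 CPM. Neither overlapped. None was called by the quasi-likelihood test, whereas the exact test and DESeq2 called all 3 (adjusted p 0.00194, 0.00436 and 0.00471 by the exact test). Since the profiles of the 3 were alike, these are not independent results.

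Higher in subtropical leaves without a call were non_cod_As_27945, with 29.6, 39.8 and 39.5 CPM at the equatorial and 91.8, 84.8 and 46.7 CPM at the subtropical site (log2 0.96, SE 0.30, adjusted p = 0.243), and non_cod_As_26583, with 79.2, 71.6 and 86.4 CPM and 155, 171 and 139.5 CPM (log2 0.90, SE 0.18, adjusted p = 0.118, and 0.0233 by the exact test). The stem transcript non_cod_As_13380 had 4.61, 5.10 and 2.81 CPM and 10.7, 16.5 and 6.06 CPM in leaves (log2 1.32, SE 0.47, adjusted p = 0.298). Photosynthesis markers summed to 132 to 237 CPM in equatorial and 516 to 691 CPM in subtropical leaves, with 3 of 3 apart between sites. The paper reports photosynthesis transcripts as higher in subtropical trees, from these same libraries. The separation of the markers is therefore not independent of its listing, and their part in the leaf differences was not tested. In bulk tissue, fewer cells of a type and less RNA per cell cannot be told apart.

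In stems, the abundant non_cod_As_49572 was 2.09 higher at the subtropical site on the log2 scale (SE 0.29, adjusted p = 0.0520, 0.0381 with library totals, 0.0462 without a filter and 4.17e-07 by the exact test), and its sites did not overlap there. The stem transcript non_cod_As_26580 had 229, 312 and 275 CPM at the equatorial and 170.4, 55.4 and 96.4 CPM at the subtropical site (log2 -1.40, SE 0.42, adjusted p = 0.382). In non_cod_As_49351 the values were 139, 180.2 and 137 CPM and 79.2, 69.5 and 66.9 CPM, narrow within each site (log2 -1.17, SE 0.21, adjusted p = 0.105, and 0.00571 by the exact test). The flower transcript non_cod_As_48559 had 42.3, 27.8 and 42.0 CPM and 24.7, 21.0 and 15.3 CPM in stems (log2 -0.97, SE 0.28, adjusted p = 0.359).

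The libraries of the 2 sites did not overlap in 23 members in leaves (11.9% of those tested, background 19.4%), in 23 in stems (11.9%, background 15.2%) and in 19 in flowers (9.5%, background 9.17%). Subtropical trees were above in 8 of these in leaves, 12 in stems and 11 in flowers, whereas over all transcripts without overlap they were above in 62.9, 67.7 and 57.9%. With TMM-scaled levels 25 members did not overlap in leaves (background 19.7%), 24 in stems (background 15.9%) and 18 in flowers (background 10.6%). Subtropical trees were then above in 5, 8 and 8 of them, against 53.0, 49.1 and 55.3% of all transcripts without overlap. In both leaves and stems, and in the same direction, 5 of the 191 members tested in both did not overlap (2.62%, background 4.66%). Subtropical trees were higher in non_cod_As_30642, non_cod_As_27945 and non_cod_As_27075, and equatorial trees in non_cod_As_49351 and non_cod_As_15678. In leaves non_cod_As_15678 had 60.5, 125 and 74.2 CPM and 46.4, 40.5 and 20.3 CPM, and in stems 61.4, 72.3 and 62.6 CPM and 46.8, 29.5 and 33.3 CPM. For none of these 5 was the Eq6 flower library nearer to the other equatorial flowers than to the subtropical ones, whereas 3 to 5 of the 5 were nearer to their own site in the 5 other flower libraries.

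**Figure D5:**
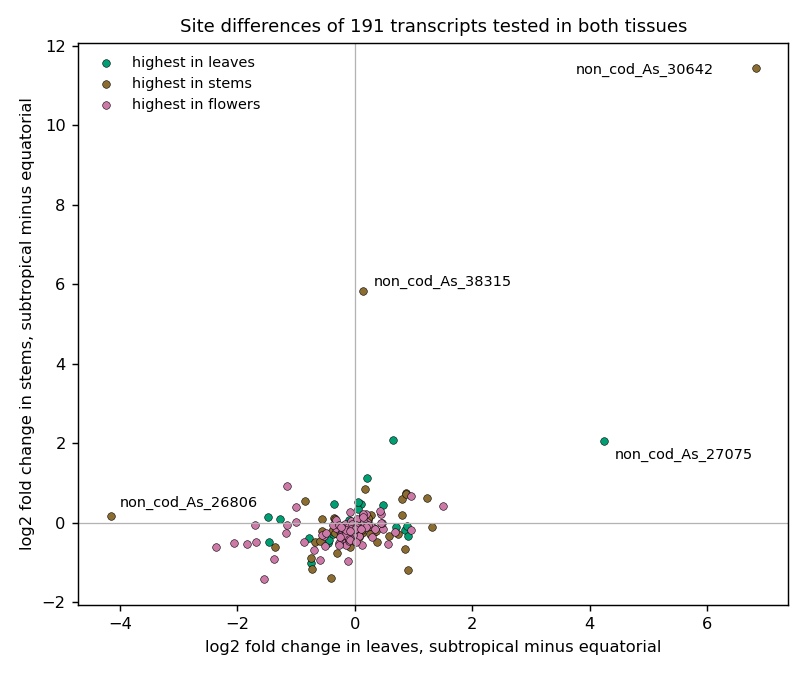
Site difference in leaves against that in stems for the 191 members tested in both, as log2 fold change of subtropical minus equatorial trees. Colour gives the tissue with the highest mean. Most members lie within 2 units of 0 on both axes, and non_cod_As_30642, non_cod_As_38315, non_cod_As_27075 and non_cod_As_26806 lie far from it.

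In flowers none of the 200 members passed the quasi-likelihood test (background 0%), and 9 had a p under 0.05 before adjustment (4.5%, against 5.66% of all transcripts). The count by the exact test was 0 (background 0.0205%), and DESeq2 called 1, non_cod_As_26580 (background 0.167%). The Eq6 flower library was set apart by its nearness to subtropical flowers in these same levels, so calls without it are a description only. Over all transcripts, 573 were called without it and 0 with it. Without the Eq6 flower library, the quasi-likelihood test called 5 members (background 1.79%). Of these, 3 were higher in subtropical flowers, non_cod_As_48599 (log2 3.59, SE 0.43, adjusted p = 0.0253), its partner non_cod_As_49228 (3.80, SE 0.49, adjusted p = 0.0259) and non_cod_As_30642 (6.44, SE 0.83, adjusted p = 0.0259). The other 2 were higher in equatorial flowers. In non_cod_As_26580 flowers had 68.2, 26.6 and 10.4 CPM at the equatorial and 5.36, 4.02 and 4.83 CPM at the subtropical site (log2 without Eq6 -3.56, SE 0.43, adjusted p = 0.0253). The Eq6 value of non_cod_As_26580 lay above all subtropical values, and in each of the other 4 members it lay within their range.

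The last of the 5, non_cod_As_23139, had 536, 86.0 and 2.08 CPM in equatorial and 2.48, 6.17 and 0.358 CPM in subtropical flowers, and at most 1.72 CPM in any leaf or stem library (log2 without Eq6 -7.02, SE 1.16, adjusted p = 0.0395). The flower library of Eq4 held 83.8% of its summed CPM. The flower library of St2 held 70.1% of that of non_cod_As_23041, with 2.37, 22.7 and 94.5 CPM and 10.8, 426 and 38.9 CPM in flowers and at most 7.43 CPM elsewhere. No other member had over 50% of its summed CPM in a single library. The removed non_cod_As_48066 had 572 CPM in the same Eq4 flower library and 113 CPM in that of Eq5.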

How the data were processed

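Leaves, stems and flowers of 3 equatorial and 3 subtropical trees gave 18 libraries, 1 per tree and tissue. The authors filtered paired-end reads, assembled them into transcripts, split these by predicted open reading frame, and deposited whole-number counts of uniquely mapped reads per transcript (Bowtie 0.12.2 in the submitters' notes, and edgeR for their tests). No genome build applies, and the strand setting of the counting is not given in the sources used here, so a non-coding transcript and an overlapping coding one cannot be told apart. The 18 single-library tables held the same counts as the joint table, and 0 columns were left without a sample.

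CPM was computed on library totals. Tests used edgeR 4.0.16 (R 4.3.3, limma 3.58.1) with filterByExpr, TMM scaling and the quasi-likelihood test, fitted over all transcripts with Benjamini-Hochberg adjustment and a threshold of 0.05. Site effects (subtropical minus equatorial) were fitted within each tissue on 6 libraries. Tissue contrasts came from 1 fit of 6 groups over 18 libraries, averaged over sites, and the interaction from the 12 leaf and stem libraries. The deposited counts were also tested with edgeR's exact test and DESeq2 1.42.0, with other scalings and filters, with trees left out, and with the tree as a block. The labels give 1 tree as the source of each set of 3 tissues, so tree numbers pair the libraries. Deviations from group means of the same tree correlated between -0.0187 and 0.402 over 37761 transcripts. Shares of counts were compared with exact permutation tests. The smallest chi-square per transcript between libraries of the same tissue was 19.1, so no library was counted as a duplicate. It was that of the flower libraries Eq6 and St4, which are labelled with different sites. Within a tissue the libraries came from separate trees, so p-values of site effects there measure the spread between trees. The main fits of the tissue contrasts and the interaction had no tree term and took libraries of the same tree as separate. Only the fit with the tree as a block uses that pairing.

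The members and lists were chosen with earlier results of these data known. Transcripts named in the text are the 10 most abundant members and the 5 with the largest part of their level in each tissue. Also named are the 5 with the lowest ratio of highest to lowest library, those called between sites, and those held mostly by 1 library. Members apart between sites in both leaves and stems are named, and some apart in 1 tissue, picked by absolute log2 fold change. Scripts were tested on simulated data.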

Additional observations from a re-analysis of the deposited data

Results flagged for a closer look

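Some members differed between tissues in opposite directions at the sites in every tree. Values are log2 differences of TMM-scaled CPM between tissues of the same tree, and the number given first is the mean of the subtropical trees minus that of the equatorial trees. Members were looked through for this pattern, so some cases are found by the search itself.

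For non_cod_As_38315, stem minus leaf differed by 5.30 between sites. It was -5.11, -4.89 and -4.13 in equatorial and 0.90, 0.28 and 0.60 in subtropical trees. The interaction had an adjusted p of 0.136 by edgeR's quasi-likelihood test, 0.00175 with the tree as a block and 1.26e-07 by DESeq2.

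For non_cod_As_48559, stem minus leaf differed by -0.86, with means of 0.32 at the equatorial and -0.54 at the subtropical site (interaction, adjusted p = 0.900 by edgeR and 0.748 by DESeq2). For non_cod_As_27075, stem minus leaf differed by -2.20, with means of 1.23 and -0.96 (interaction, adjusted p = 0.491 by edgeR and 0.0278 by DESeq2). It was 0.02, 2.02 and 1.65 in equatorial and -0.44, -1.51 and -0.94 in subtropical trees, so Eq4 showed almost no difference.

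For non_cod_As_27075, flower minus leaf differed by -3.54, with means of 1.49 and -2.05, and this difference was not tested. For non_cod_As_30642, flower minus stem differed by -4.23, with 2.45, 0.46 and 7.66 in equatorial trees and a subtropical mean of -0.71. This difference was not tested either, and its largest equatorial value comes from Eq6, whose flower library stood apart.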

How the results depend on the processing

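No named result that was followed over the alternatives changed direction past the threshold. The 5 members named for the lowest ratio of highest to lowest library were not followed in this way. In leaves, site calls among members numbered 1 by the quasi-likelihood test, 8 by the exact test, 10 by DESeq2, 2 with library totals, 3 in 1 fit over all 18 libraries, and 0 to 2 with a tree left out. In stems they numbered 2, against 5 by the exact test, 5 by DESeq2 and 0 to 2 with a tree left out. Library totals, no filter and 1 fit over all 18 libraries each gave 3 in stems. In flowers they numbered 0, against 1 by DESeq2 and 0 to 5 with a tree left out, the 5 without Eq6. Over all transcripts the quasi-likelihood test, the exact test and DESeq2 called 56, 966 and 1140 in leaves, 78, 571 and 617 in stems, and 0, 6 and 81 in flowers. Between stems and leaves 59 members were called, against 37 in equatorial trees, 31 in subtropical trees and 91 with library totals, the last chosen after seeing the data. Between flowers and stems 129 were called, against 77 in equatorial trees. The interaction gave 0 calls, 3 by DESeq2, and 0 to 1 with a tree left out (1 without Eq6). With the tree as a replicate block, the counts were 68 for stems against leaves, 140 for flowers against leaves, 140 for flowers against stems and 1 for the interaction. Apart from the calls given with the block in the report, it changed no call among the named results that were followed over the alternatives. The causes of these changes were not tested. Over the alternatives for single named results, called or not, 1285 values stayed on the same side of the threshold, 46 gained a call and 42 lost one. Low counts limit transcripts near 0 in a tissue, where fitted fold changes depend on the prior count.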
